A study of Homo sapiens with 3 samples.

Results

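Cancer-testis antigen genes were examined in 3 RNA-seq libraries of 22Rv1 WT cells. The members are the protein-coding entries whose Ensembl identifier maps to a symbol starting with MAGEA, MAGEB, MAGEC, GAGE, XAGE, PAGE, SSX, CTAG or SPANX, which makes 78 entries with 72 identifiers and 71 symbols among 19142 protein-coding genes. Of these, 73 lie on chromosome X. The other 5, SSX2IP, CTAGE1, CTAGE6, CTAGE9 and CTAGE15, lie on other chromosomes, match a prefix by name and belong to other gene families, so they are named apart from the 73 antigen genes. As deposited, 4 GAGE identifiers stand on more than 1 entry, and 2 identifiers carry the symbol MAGEA9B. Entries at 0 reads were kept as separate genes. Counting neighbouring entries at 0 once as well would leave 53 members.

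22Rv1 is an established human prostate carcinoma line, and the WT cells carry the intact enhancer around the prostate cancer risk SNP, with the non-risk allele on both copies. The cells were grown in serum-containing medium without further treatment. The libraries are numbered replicates 1 to 3. The study's methods call them control clones and its results call them biological replicates, so it is not settled if their spread is one among clones or among cultures. Enhancer KO and risk-allele cells of the same study are not analysed here, so all values below describe 1 condition.

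Cancer-testis antigens are proteins made in germ cells of the testis, and some in the placenta, that most other adult tissues do not make and that many tumours switch on. Their genes mostly form clusters of young, near-identical copies on the X chromosome, and DNA methylation of their CpG-containing promoters is the best known brake on them in somatic cells. Because the testis shows few peptides to T cells, several of these proteins, such as those of MAGEA4 and CTAG1B, are targets of vaccines and engineered T cells.

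Levels are given as the deposited normalized counts, that is, reads per gene divided by 1 size factor per library. Whole reads were recovered from them, at 38252744 reads in replicate 1, 35675670 in replicate 2 and 38629080 in replicate 3. A count of 0 reads in a library allows up to 3 reads, or between 2.36 and 2.54 normalized counts, and this floor covers counting error only. All 7 prostate line markers were expressed, from KRT8 at 25161 ± 789 normalized counts (SD, n = 3) down to KLK3 at 341 ± 32.9. Of 6 germ cell markers, DAZL, PRM1, PRM2 and TNP1 had no read, DDX4 had 1 read in replicate 3, and SYCP3, itself a cancer-testis gene, stood at 60.4 ± 6.11 normalized counts. Of 7 markers of blood, fibroblasts and endothelium with an entry, COL1A1 and CD68 were expressed at 261 ± 17.2 and 66.6 ± 11.5 normalized counts, COL3A1 stood at 33.9 ± 11.5, and PTPRC, COL1A2, CD3E and CDH5 had between 0 and 1 read in each library.

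The promoters of 7 members are printed first, because pairs of near-identical promoters in this set went with very different read counts. The letters are the 250 bases before the RefSeq gene start (GRCh38.p14), 5′ to 3′ on the gene's strand, with every CpG in capitals. MAGEA3 and MAGEA6 share the same 250 bases, as do XAGE1A and XAGE1B, so 1 of each pair is printed. MAGEA4 is at chrX:151912224-151912473 (+), MAGEA3 at chrX:152698544-152698793 (+), MAGEA2 at chrX:152753885-152754134 (-), MAGEA12 at chrX:152733507-152733756 (+), SSX2B at chrX:52751002-52751251 (+), SSX5 at chrX:48196796-48197045 (-) and XAGE1B at chrX:52517013-52517262 (-).
MAGEA4: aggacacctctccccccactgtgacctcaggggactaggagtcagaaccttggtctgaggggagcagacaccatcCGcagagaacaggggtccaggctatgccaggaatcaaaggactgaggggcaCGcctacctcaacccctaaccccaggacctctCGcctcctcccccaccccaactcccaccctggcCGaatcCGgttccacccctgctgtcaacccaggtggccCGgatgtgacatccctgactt
MAGEA3: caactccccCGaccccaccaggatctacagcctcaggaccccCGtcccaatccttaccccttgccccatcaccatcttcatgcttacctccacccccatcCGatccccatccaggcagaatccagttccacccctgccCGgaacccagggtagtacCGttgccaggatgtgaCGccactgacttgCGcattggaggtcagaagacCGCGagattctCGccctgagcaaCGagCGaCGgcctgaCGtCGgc
MAGEA2: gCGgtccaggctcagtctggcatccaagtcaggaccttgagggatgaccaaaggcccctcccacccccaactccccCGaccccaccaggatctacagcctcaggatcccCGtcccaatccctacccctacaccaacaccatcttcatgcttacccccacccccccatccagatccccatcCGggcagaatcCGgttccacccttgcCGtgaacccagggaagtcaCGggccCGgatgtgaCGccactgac
MAGEA12: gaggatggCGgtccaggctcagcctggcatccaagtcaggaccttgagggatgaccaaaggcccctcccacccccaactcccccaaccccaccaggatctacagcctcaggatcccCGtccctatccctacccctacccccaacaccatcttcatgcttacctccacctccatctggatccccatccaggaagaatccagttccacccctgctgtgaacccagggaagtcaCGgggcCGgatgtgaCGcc
SSX2B: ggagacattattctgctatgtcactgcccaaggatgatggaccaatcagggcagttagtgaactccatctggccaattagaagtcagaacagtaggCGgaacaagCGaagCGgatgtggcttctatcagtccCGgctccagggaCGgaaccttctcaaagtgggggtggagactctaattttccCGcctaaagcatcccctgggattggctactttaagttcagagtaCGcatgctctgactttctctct
SSX5: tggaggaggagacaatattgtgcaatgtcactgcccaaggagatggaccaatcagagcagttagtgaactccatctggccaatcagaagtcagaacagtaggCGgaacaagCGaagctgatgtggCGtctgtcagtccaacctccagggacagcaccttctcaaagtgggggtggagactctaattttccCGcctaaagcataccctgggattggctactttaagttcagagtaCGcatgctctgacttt
XAGE1B: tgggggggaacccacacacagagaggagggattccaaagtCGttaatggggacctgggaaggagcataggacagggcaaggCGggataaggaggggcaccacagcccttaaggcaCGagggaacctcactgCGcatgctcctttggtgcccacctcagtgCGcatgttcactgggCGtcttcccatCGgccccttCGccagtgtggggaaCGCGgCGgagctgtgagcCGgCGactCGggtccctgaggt

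Most of the antigen genes were not expressed in 22Rv1, and a few were among the abundant transcripts of the line. Of the 78 members, 40 had no read in any library, 14 had reads with a mean of 3 or fewer, and 24 lay above that floor. The count of 40 depends on how entries at 0 are counted. By identifier, 34 of 72 had no read, and with neighbouring entries at 0 counted once it was 15 of 53, or 28.3%, against 11.4% of protein-coding genes counted the same way. A read was found in every library for 21 members, against 75.8% of all protein-coding genes, and 24 members lay above the floor, against 75.7%. Expressed is used here for 1 CPM (reads scaled by library size, with edgeR's TMM sizes) or more in all 3 libraries, near 30.2 normalized counts. It held for 13 members, or 16.7%, against 63.8% of protein-coding genes and 52.4% of those on chromosome X. Among the 73 antigen genes alone, 11 were expressed. The median level over the members was 0 normalized counts, against 352 over all protein-coding genes and 69.6 over those of X.

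The families differed in how many of their genes were read. In MAGEA, 6 of 12 genes were expressed, and in SSX without SSX2IP it was 3 of 8. CTAG1A and CTAG2 were expressed, and CTAG1B, the other gene of that group, fell just short. None of the 10 MAGEB, 3 MAGEC, 16 GAGE, 5 XAGE, 6 PAGE and 10 SPANX entries was expressed on its own. Summed, the copies XAGE1A and XAGE1B lay above 1 CPM in all 3 libraries. The SPANX genes, which code for nuclear proteins of sperm, had no read at all, and the 10 MAGEB entries together had 1 read in each library. MAGEA held 71.6% ± 2.45 of the normalized counts of the 73 antigen genes, CTAG 21.0% ± 1.20 and SSX 6.99% ± 2.04 (SD, n = 3).

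MAGEA4 was the antigen gene with the most counts. Its protein binds ubiquitin ligases, as MAGE proteins do, and it is a target of engineered T cells. It stood at 10630.3 normalized counts in replicate 1, 9900.3 in replicate 2 and 10096.7 in replicate 3, a mean of 10209 ± 378 (SD, n = 3). The 3 libraries lay close together, and 96.5% of expressed protein-coding genes had a lower level. MAGEA4 alone made up 47.4% ± 0.599 of the MAGEA counts. An antisense transcript, MAGEA4-AS1, overlaps 1474 bases of the gene, and reads of the pair cannot be told apart because the strand setting of the counting is not given.

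CTAG2 codes for LAGE-1, the close relative of NY-ESO-1. It had 6759.8, 6131.1 and 5747 normalized counts in replicates 1, 2 and 3, a mean of 6213 ± 511. Replicate 1 was the highest, by 1.18 times over replicate 3, and the gene did not differ between libraries beyond the usual spread (edgeR dispersion, adjusted p = 0.486). Per kilobase of 1 annotated transcript, the order at the top turned round. CTAG2 came to 8185 ± 674 normalized counts per kilobase and MAGEA4 to 5922 ± 219, ranks 6 and 9 among the 433 expressed protein-coding genes of chromosome X.

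MAGEA6, MAGEA1 and MAGEA3 followed. MAGEA1 is the founding member of the family, and MAGEA3 and MAGEA6 code for nearly the same protein, known for binding the ubiquitin ligase TRIM28. MAGEA6 had 4348.5, 4033.2 and 4217.4 normalized counts, or 2414 ± 91.0 per kilobase. MAGEA1 had 3625.6, 3464.5 and 3523.8, or 2068 ± 47.6 per kilobase. MAGEA3 had 3265.3, 3170 and 3475.8, or 1587 ± 75.2 per kilobase. Each of these 3 genes varied by at most 1.10 times between its lowest and highest library, and the steps between their levels per kilobase were larger than the SDs. MAGEA3 and MAGEA6 share 25.9% and 32.6% of their 150-base stretches, the length of 1 read, so part of their reads could have been assigned to either gene.

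Of the MAGEA genes, MAGEA2 and MAGEA2B were expressed with lower counts. They are copies whose transcripts are alike in every 150-base stretch, so the split between them is uncertain. How the counting treated such reads is not given in the sources used here, so the level of the pair is uncertain too. MAGEA2B had 174.6, 175.2 and 144.9 normalized counts, and MAGEA2 had 56.9, 143.9 and 73.2. The sum of both was 231.5, 319.1 and 218.1, highest in replicate 2.

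The MAGEA genes stand in a row on X, and genes with few or no reads lie between expressed ones. In GRCh37, MAGEA6 (chrX:151867214-151870825) and MAGEA2B (chrX:151883075-151887096) lie before MAGEA12 (chrX:151899293-151903206), and MAGEA2 (chrX:151918387-151922408) and MAGEA3 (chrX:151934652-151938240) lie after it. MAGEA12 had no read in any library, although all 4 of these neighbours were expressed. Its transcript shares no 150-base stretch with another gene, but the long non-coding gene CSAG4 overlaps 3844 bases of it on the same strand, and its part in the count of 0 was not tested. MAGEA10 had 0.8, 0.8 and 0 normalized counts, MAGEA11, a coactivator of steroid receptors, had 1.7 in replicate 2 alone, and MAGEA8 had 9.5, 1.7 and 4.7. A long non-coding gene with its own entry overlaps 5247 bases of MAGEA10 on the same strand. Its part in the low count of MAGEA10 was not tested. Both MAGEA9B entries, which overlap each other in the annotation used, had no read. All their 150-base stretches are shared with another gene, and how such reads were counted is not given.

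SSX genes code for nuclear repressors, and fusions of SSX1 or SSX2 to SS18 drive synovial sarcoma. SSX3 had 1058.7, 1075.6 and 1025 normalized counts, a mean of 1053 ± 25.8, with the libraries close together. SSX2B had 522.2, 1290.5 and 592, and SSX2 had 131.2, 453.6 and 144.1. In both, replicate 2 lay far above replicates 1 and 3, and without it the mean of SSX2 fell from 243 to 138. SSX1 itself had at most 2 reads in a library, SSX4B had 3.2, 1.7 and 6.3 normalized counts, and SSX5 had no read. SSX9P, annotated as a pseudogene and so not a member, had 93.2, 66.9 and 70.1.

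Per kilobase, SSX3 stood at 829 ± 20.3 normalized counts, SSX2B at 624 ± 331 and SSX2 at 190 ± 142. The gap between SSX3 and SSX2B was smaller than the SD of SSX2B, so their order does not hold against the spread. SSX2IP, a partner of SSX2 at centrosomes and cell junctions and not an antigen gene, had 2356, 2444.8 and 2514.5 normalized counts and 424 ± 13.8 per kilobase.

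CTAG1A and CTAG1B both code for NY-ESO-1. Their transcripts share 98.4% and 100% of 150-base stretches, so the split between these 2 copies and their summed level are uncertain too. CTAG1A had 64, 55.9 and 51.2 normalized counts, and CTAG1B had 30.8, 59.2 and 29.9, with replicate 2 the highest. In CPM, CTAG1B stood at 1.02, 1.96 and 0.986, just outside the expressed genes. The copies together came to 97.0 ± 17.1 normalized counts, beside 6213 for CTAG2, of whose stretches 2.62% are shared with another gene. As counted, CTAG2 held 98.5% ± 0.263 of the counts of the 3 CTAG genes. The treatment of shared reads is not given, so how far the levels of CTAG2 and the copies lie apart is not settled.

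Of the CTAGE genes, relatives of a family that works in protein export from the endoplasmic reticulum, CTAGE15 had 47.4, 48.2 and 48 normalized counts, the smallest spread of the 13 expressed members. CTAGE15 was also the lowest of them, at 1.57 to 1.60 CPM. CTAGE1 had 0.8, 9.3 and 10.2 normalized counts, CTAGE6 had 7.9, 5.1 and 0.8, and CTAGE9 had 1.6, 0 and 5.5.

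The remaining families were read at the edge of detection, with the exception of XAGE1B. XAGE1B codes for a small GAGE-related antigen and had 31.6, 311.4 and 27.6 normalized counts, on 40, 368 and 35 reads. Replicates 1 and 3 lay next to the line of 1 CPM, at 1.04 and 0.908 CPM, and replicate 2 at 10.3. Without replicate 2 its mean was 29.6 normalized counts in place of 124. XAGE1A, whose transcript is identical to XAGE1B in every 150-base stretch, had 0, 10.2 and 7.1 normalized counts. The split between these copies is uncertain. Their sum was 31.6, 321.6 and 34.7 normalized counts, above the line of 1 CPM in all 3 libraries.

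MAGEC2, another TRIM28-binding MAGE protein, had 11.9, 1.7 and 3.1 normalized counts. PAGE4, a disordered protein known from the prostate, had 3 reads in replicate 3 and none in the others, and PAGE1 had 0.8, 3.4 and 3.9 normalized counts. GAGE12F had 9.5, 0 and 3.1 on 1 of its entries, and GAGE2A had 8.5 in replicate 2 and 0 in the others. The GAGE genes are a tandem array of copies, and 8 of the 10 GAGE identifiers share at least 50% of their 150-base stretches with another gene. MAGEB18, the highest MAGEB gene, had 0, 0.8 and 0.8.

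**Figure D1:**
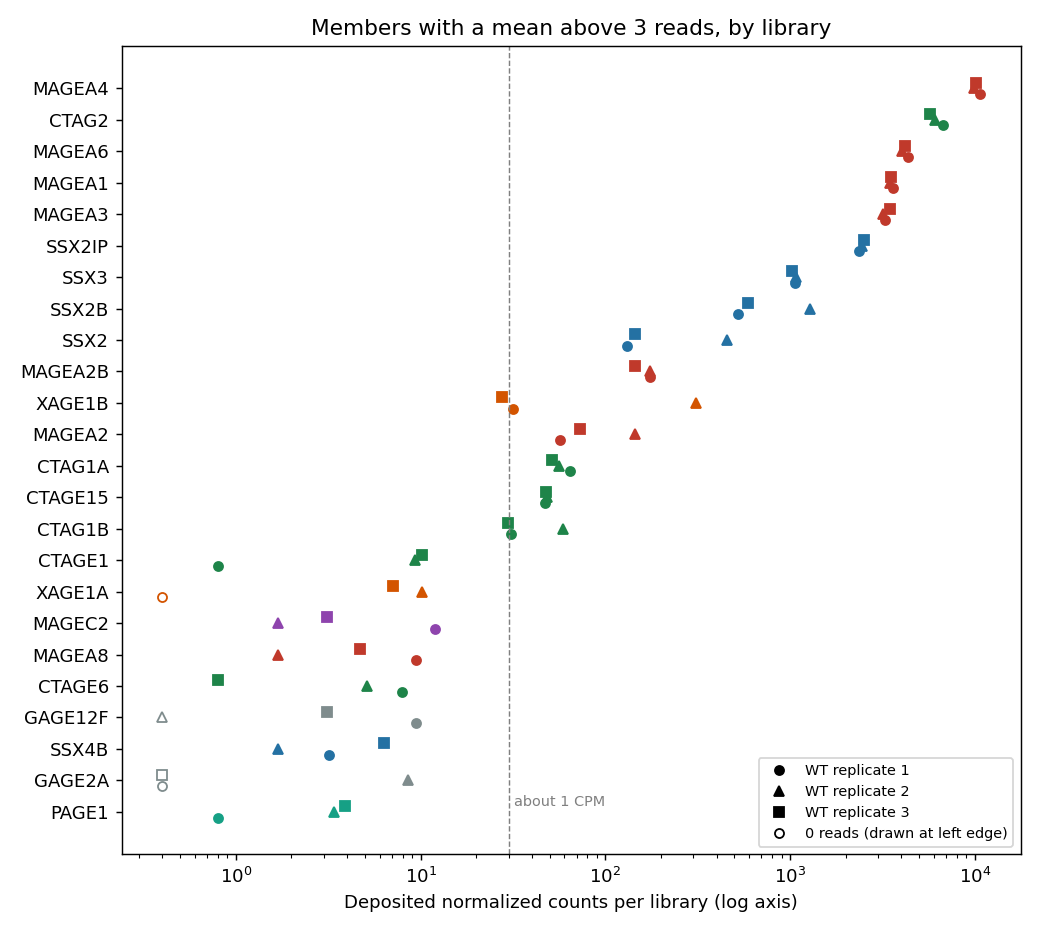
Normalized counts (log axis) of the 24 members with a mean above 3 reads in each of the 3 WT libraries, coloured by family and with 0 reads drawn open at the left edge. MAGEA4 lies near 10209, and replicate 2 stands apart for XAGE1B, SSX2 and SSX2B.

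Many members, though not MAGEA4, MAGEA1 or SSX3, share stretches as long as a read with another gene. Of the 72 identifiers, 36 share no 150-base stretch with another gene and 25 share at least 50% of theirs. MAGEA4, MAGEA1, SSX3 and MAGEA12 share none, nor do 21 of the 34 identifiers with no read. Among the 10 SPANX genes, 7 share none.

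The printed promoters show how alike the promoters of expressed copies and of copies with no read are. MAGEA12 matched MAGEA2 at 228 of 245 aligned bases, or 93.1%, with 5 CpG against 9. SSX5, with no read, matched SSX2B at 229 of 244 bases, or 93.9%, with 5 CpG against 7. MAGEA3 and MAGEA6 have 15 CpG each, XAGE1A and XAGE1B 14 each, and MAGEA4, the gene with the most counts, has 6. The expressed antigen genes with a promoter entry ranged from 6 to 15 CpG. The counts also depend on where each window lies. MAGEA2 and MAGEA2B matched at all 208 aligned bases but had 9 and 11 CpG, as their windows are offset.

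RefSeq promoters were matched for 63 of the 71 symbols. The symbols without an entry were CTAG1A, CTAG1B, CTAG2, MAGEA1, MAGEA10, MAGEB17, SPANXN4 and SSX3. The median CpG count in the 250 bases was 9 for the 7 expressed antigen genes, 8 for the 51 that were not expressed, 6.5 for the 32 with no read and 11 over 35116 promoters. Each of the 7 expressed genes had at least 6, while the genes with no read ranged from 1 to 15. The letters CCGGAA, a form of the site read by ETS factors, were searched on both strands, and other forms of the site were not. CCGGAA stood in the promoters of MAGEA3 and MAGEA6 among the expressed antigen genes and in that of MAGEB6 among the others. It stood in 14.5% of all promoters. Promoters of 1 family are copies of each other, so they are not independent, and no methylation was measured.

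Whether the members were steady between the WT libraries was tested by a chi-square test of each gene's recovered reads against TMM library sizes, with the trended dispersion of edgeR and Benjamini-Hochberg adjustment over the 14646 genes that averaged 10 reads or more. The dispersion was fitted to the same libraries, and the p-values measure only the spread between these samples. Of 15 members tested, 3 differed, against 0.416% of all genes tested. They were XAGE1B (adjusted p = 5.19e-29), SSX2B (adjusted p = 1.96e-24) and SSX2 (adjusted p = 1.43e-16), all with replicate 2 highest. Over all genes tested, 61 differed, and replicate 2 was the highest in 35 of these, or 0.239% of the genes tested. Replicate 2 exceeded the mean of replicates 1 and 3 by 10.5 times for XAGE1B, 3.30 times for SSX2 and 2.32 times for SSX2B. Without replicate 2, 0 members differed by the edgeR-based test, and 1 had an unadjusted p under 0.05.

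SSX2 and SSX2B share 90.6% and 90.3% of their stretches and may count the same molecules. Their sum was 653.4, 1744.1 and 736.1 normalized counts, so replicate 2 was higher in the pair as a whole, by 2.51 times over the mean of the others (edgeR dispersion, adjusted p = 2.27e-38). The share of SSX2 in the sum was 20.1%, 26.0% and 19.6%. The make-up of the SSX family differed with it. SSX3 held 61.7% and 58.0% of the SSX counts in replicates 1 and 3, and 38.1% in replicate 2.

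The members with the most counts varied little. SDs were 2.30% to 8.23% of the mean for the 7 members between 1000 and 20000 normalized counts, with a median of 3.70% against 3.49% for all protein-coding genes of that level. MAGEA2, at 2.21 times the mean of the others in replicate 2, did not pass (edgeR dispersion, adjusted p = 0.0638), nor did CTAG1B, at 1.95 times (edgeR dispersion, adjusted p = 0.974). Among 11743 genes that averaged 100 normalized counts or more, the ratio lay between 0.775 and 1.29 from the 1st to the 99th percentile. It reached 2 in 5 genes, which were XAGE1B, SSX2, SSX2B, GPR89A and GTF2IP1. XAGE1B averaged 100 or more only through replicate 2, as its mean without that library was 29.6. Its place among these genes is therefore not independent of the ratio.

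**Figure D2:**
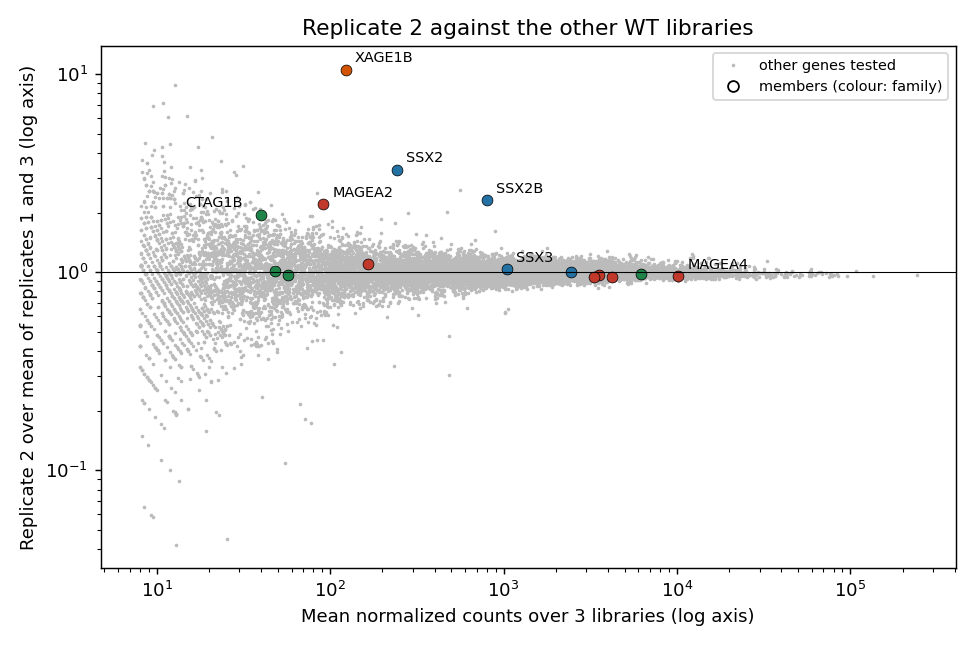
Ratio of replicate 2 to the mean of replicates 1 and 3 (log axis) against the mean normalized counts (log axis) for every gene tested, with the 15 tested members in colour. XAGE1B lies at 10.5, SSX2 at 3.30 and SSX2B at 2.32, and SSX3 and MAGEA4 lie near 1.

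XAGE1B, SSX2 and SSX2B are neighbours. In GRCh37 they lie within 584 kb of chromosome X, from chrX:52235228 to chrX:52819350. That stretch also holds XAGE1A and SSX7, which were too low for the test. Within 1000000 bases on either side, 10 other protein-coding genes were tested, with ratios of replicate 2 to the others between 0.820 and 1.13. By the edgeR-based test 0 of the 10 differed, which is near the share of 0.416% over all genes tested. MAGED1 alone of these genes lies before XAGE1B, the others lie beyond SSX2B, and none lies inside the stretch. SPANXN5, XAGE5 and XAGE3, next to SSX2B, had no read in any library. SSX3, at chrX:48205862-48216142, was at 1.03 times.

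**Figure D3:**
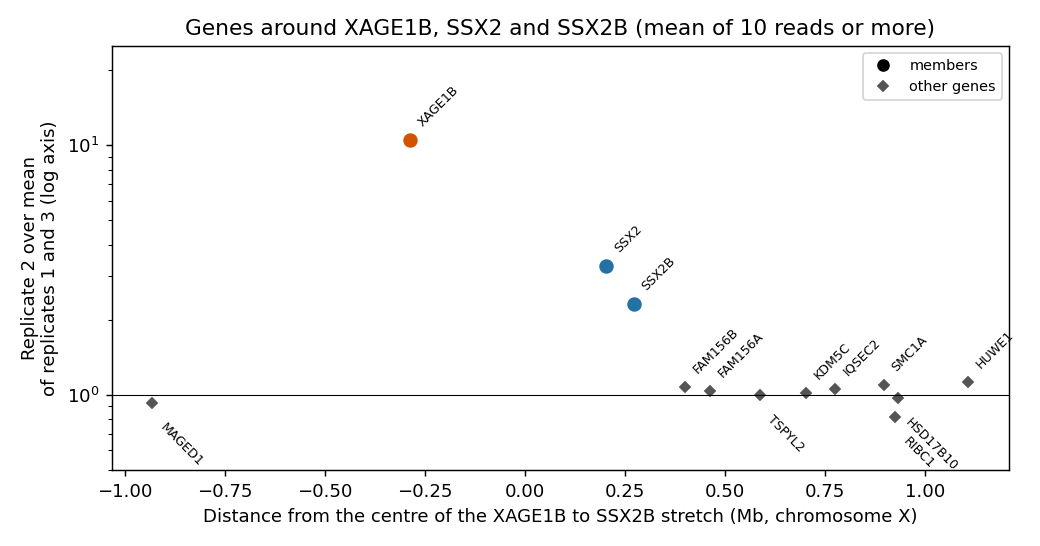
Ratio of replicate 2 to the mean of replicates 1 and 3 (log axis) for genes averaging 10 reads or more around the XAGE1B to SSX2B stretch, by distance from its centre in Mb. The 3 members lie between 2.32 and 10.5 and the other genes between 0.820 and 1.13.

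Related genes give a frame for these levels. Type II MAGE genes, the relatives of MAGEA that most tissues express, were expressed in 6 of 11 cases. They were led by MAGED1 at 3661 ± 152 normalized counts, MAGEF1 at 3032 ± 73.7 and MAGED2 at 2815 ± 35.4. None of the 7 tested differed between libraries by the edgeR-based test, against 0.416% of all genes tested. Of 27 other X-linked genes listed as cancer-testis genes and with an entry, 5 were expressed. The highest were LAGE3 at 1912 ± 123, NXF2 at 1019 ± 287 and DDX53 at 361 ± 33.3. NXF2 and its copy NXF2B, from a family of RNA export factors, differed between libraries with replicate 2 lowest. NXF2 had 1037.4, 723.5 and 1295.8 normalized counts (edgeR dispersion, adjusted p = 5.90e-07), and NXF2B had 108.2, 18.6 and 107.1 (edgeR dispersion, adjusted p = 0.00532).

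Of 28 autosomal genes listed as cancer-testis genes, 12 were expressed, led by SPAG9, ODF2 and CEP55 at 3826 ± 277, 3561 ± 57.5 and 2159 ± 53.6 normalized counts. Whether the genes on either cancer-testis list are restricted to germ cells was not tested. All 17 genes listed as partners or chromatin regulators of the antigen genes were expressed. The highest were TRIM28, the ubiquitin ligase partner of MAGEA3, MAGEA6 and MAGEC2, at 19705 ± 628, the deacetylase HDAC1 at 11208 ± 343, and the maintenance DNA methyltransferase DNMT1 at 10746 ± 168. None of the 17 differed between libraries by the edgeR-based test, against 0.416% of all genes tested.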

How the data were processed

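RNA was sequenced from 3 libraries of 22Rv1 WT cells as paired-end reads. The authors used HISAT2 to map reads to GRCh37 (hg19) with a GENCODE annotation, HTSeq to count them and DESeq2 to normalize. The version of HISAT2, the GENCODE release, strandedness and the treatment of reads that map to several places are not given in the sources used here. The signal values the authors deposited are each gene's reads over a library-wide size factor, to 1 decimal. Reads were recovered as whole multiples of 1 step per library, and 99.94% to 99.99% of values came out whole within 0.051 normalized counts.

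Neighbouring entries with the same reads in all 3 libraries and at least 1 read were merged, which removed 1976 of 29000 entries and left 27024 genes. Symbols came from the GENCODE table and matched 86.3% of identifiers, so a member without a matched symbol would be missed. Lengths are those of 1 canonical transcript, or the longest coding one for 5 members. Shared stretches are 150-base runs found letter for letter in a transcript of another gene. Promoters came from RefSeq (GRCh38.p14) and were compared by local alignment. Positions of genes are in GRCh37, where the MAGEA3 to MAGEA6 stretch runs in the opposite direction to GRCh38. The order and strands of XAGE1A and XAGE1B are reversed between the builds as well.

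Libraries were compared per gene by a chi-square test with edgeR 4.0.16 TMM sizes and trended dispersion under R 4.3.3, two-sided, at an adjusted p of 0.05, and the test was checked on simulated data. DESeq2 1.42.0 gave other size factors. Other scalings, dispersions, count minimums and definitions of expressed were tried, and each replicate was left out in turn. Members, lists and tests were chosen with earlier results of these data known. All members with a mean above 3 reads are named, with the highest of each family and those with copies. Of the other lists, the 3 highest genes are given, and NXF2B was named after its values were seen. Floors cover counting error only.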

Additional observations from a re-analysis of the deposited data

How the results depend on the processing

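TMM or total scaling moved the 24 named levels by at most 1.01 times. Leaving out 1 replicate moved 9 of them by over 1.5 times. Without replicate 2, SSX2 came to 138 normalized counts in place of 243, XAGE1B to 29.6 in place of 124, XAGE1A to 3.55 in place of 5.77 and GAGE2A to 0 in place of 2.83. Without replicate 1, MAGEC2 came to 2.40, MAGEA8 to 3.20, CTAGE6 to 2.95 and GAGE12F to 1.55, and without replicate 3 SSX4B came to 2.45. Members with a read in every library numbered 23 to 25 when 1 replicate was left out, against 21, and members above the floor 22 to 23, against 24. With a floor of 10 reads in place of 3, 15 members remained above it. Expressed members numbered 13 to 15 when 1 replicate was left out, and 15 with 0.5 CPM or with 1 CPM in any library, against 13. Members that differed between libraries numbered 0 to 3 when 1 replicate was left out, with 0 without replicate 2 by the edgeR-based test, where 1 had an unadjusted p under 0.05. Against sampling noise alone 9 members differed, as did 6141 of all genes, and with the common dispersion 5 differed, as did 490 of all genes. Sampling noise alone allows by construction for no spread between replicates, and for the common dispersion the cause was not tested. With a mean of at least 50 reads, MAGEA2 was called as well, and other scalings called the same 3 members. Summing SSX2 and SSX2B, an alternative chosen after seeing the data, left 2.

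At this depth a member with no read can still have up to 3 reads per library. Reads within a 150-base stretch that copies share do not tell the copies apart, and with 3 libraries of 1 condition, the cause of the differences between libraries was not tested. No paired analysis was possible because there is only 1 group.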
